A study of Mus musculus with 20 samples.

Results

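The subject of this report is the endocytic receptor complex of the proximal tubule: megalin (Lrp2), cubilin (Cubn), amnionless (Amn) and the adaptor Dab2. The members were chosen by symbol, as the 4 rows of the deposited expression table that carry these names, out of 6025 genes in the table. All 4 were present in every library. The table is itself a selection, since each of its genes lay at least 1.53-fold from the mean of the 8 controls in at least 1 injury. That the members are in it is therefore no result.

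The study measured polyadenylated RNA in renal cortex of 8-week-old wild-type C57BL/6 mice, with 1 library for each of 20 mice. The 8 controls carry the treatment label mock, and the design text describes them as mock and vehicle mice without saying which is which. The injured mice had ischemia-reperfusion injury (IRI, interrupted and restored renal blood flow, 24 h, n = 4), rhabdomyolysis (24 h, n = 4) or cisplatin (a platinum chemotherapy drug toxic to tubules, 72 h, n = 4). All groups share the genotype label WT, and the later time and the agent cannot be told apart for cisplatin. Library identifiers fall into separate ranges, one holding controls 1 to 4 with the IRI mice and the other controls 5 to 8 with the rhabdomyolysis and cisplatin mice. The 4 controls in the same range served as the reference for an injury, so rhabdomyolysis and cisplatin share their controls.

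Proximal tubule cells recover filtered proteins, vitamins and hormones from the tubule fluid at their apical membrane. Megalin, a very large member of the LDL receptor family, and cubilin, a peripheral membrane protein with no membrane span of its own, bind these ligands. Amnionless anchors cubilin and carries it to the cell surface, and Dab2 binds the cytoplasmic tail of megalin and links it to the clathrin coat. Loss of megalin, cubilin or amnionless is known to cause low-molecular-weight or albumin loss in the urine.

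The genes differ in size and surroundings. In GENCODE M21 (GRCm38), Lrp2 lies at chr2:69424340-69586065 on the minus strand, with a principal transcript of 15460 bases in 79 exons. Cubn lies on the same chromosome and strand at chr2:13276338-13491813, with 11262 bases in 67 exons. Amn is a short gene at chr12:111271095-111276426 on the plus strand, with 1701 bases in 12 exons. Dab2 lies at chr15:6299788-6440712 on the plus strand, with 4663 bases in 15 exons and 14 annotated transcripts. Antisense or opposite-strand genes overlap Cubn (Gm13270) and Dab2 (Gm16311 and Gm18888). These are not in the table, the strand setting of the counting is not given in the sources used here, and reads from the overlapping stretches cannot be assigned to a strand from these values.

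The promoters are printed because each of the 4 transcripts fell in each injury in the main test, by unlike amounts, as described below. Each stretch runs 5′ to 3′ on the gene's strand over 300 bases around the annotated start, from RefSeq (GRCm38.p6), and capitals mark a motif match. They are Lrp2 (chr2:69585980-69586279, minus), Cubn (chr2:13491827-13492126, minus), Amn (chr12:111270846-111271145, plus) and the downstream of the Dab2 entries (chr15:6386498-6386797, plus).
Lrp2: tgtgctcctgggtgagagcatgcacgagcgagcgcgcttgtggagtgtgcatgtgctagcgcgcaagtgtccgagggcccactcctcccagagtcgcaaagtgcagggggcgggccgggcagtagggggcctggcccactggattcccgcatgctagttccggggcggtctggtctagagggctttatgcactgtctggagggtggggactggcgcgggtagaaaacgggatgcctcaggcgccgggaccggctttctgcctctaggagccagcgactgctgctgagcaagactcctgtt
Cubn: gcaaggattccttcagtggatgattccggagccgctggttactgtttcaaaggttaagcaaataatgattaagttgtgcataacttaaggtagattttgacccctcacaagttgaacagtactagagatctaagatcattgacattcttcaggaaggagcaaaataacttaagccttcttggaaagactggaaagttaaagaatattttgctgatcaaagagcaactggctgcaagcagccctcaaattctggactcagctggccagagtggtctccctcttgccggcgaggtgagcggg
Amn: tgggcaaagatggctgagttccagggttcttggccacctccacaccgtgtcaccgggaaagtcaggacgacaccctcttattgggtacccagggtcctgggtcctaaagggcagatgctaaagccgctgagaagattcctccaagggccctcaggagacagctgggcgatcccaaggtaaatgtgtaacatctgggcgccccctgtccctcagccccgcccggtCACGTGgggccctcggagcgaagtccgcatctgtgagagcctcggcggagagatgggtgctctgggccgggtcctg
Dab2: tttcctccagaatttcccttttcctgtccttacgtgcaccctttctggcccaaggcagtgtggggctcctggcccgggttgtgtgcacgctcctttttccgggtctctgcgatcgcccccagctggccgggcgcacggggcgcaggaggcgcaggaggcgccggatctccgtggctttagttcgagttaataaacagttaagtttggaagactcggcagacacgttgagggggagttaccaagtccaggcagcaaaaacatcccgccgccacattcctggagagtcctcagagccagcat
The motifs searched on both strands were the HNF4 sequence CAAAGTCCA, the E-box CACGTG and TATAAA, none of which overlaps another. The Amn promoter held CACGTG 26 bases before the start, a motif present in 7.15% of 32851 RefSeq promoters of the same length. No motif was matched in the other windows, which says only that these letters are not there. CAAAGTCCA was present in 0.475% and TATAAA in 13.6% of all promoters. GC content was 65% for Lrp2, 62.3% for Amn and 59.3% for the downstream Dab2 promoter, against 44.3% for Cubn and 37.7% for the upstream Dab2 promoter, with a median of 52.7% over all promoters. The promoters of the 2 receptors were unlike in base composition, with 20 CpG dinucleotides for Lrp2 and 5 for Cubn.

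Expression is given as CPM, read counts scaled to a common library size, which is the deposited unit. Reads in the table numbered 3.48 M to 5.40 M per library, and no member had fewer than 314 reads in any library. The table's genes made up 55.3 to 70.6% of the effective library in controls, 46.3 to 48.3% after IRI, 42.1 to 45.3% after rhabdomyolysis and 44.4 to 47.3% after cisplatin. The share of the library that these genes take therefore moved with injury, and its part in the results was not tested beyond the scaling alternatives given below. The proximal tubule identity of the cortex was clear in the controls, where 12 markers of its first and second segments summed to 12950 to 16980 CPM.

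In uninjured cortex the complex was abundant. Per kilobase of principal transcript, the control mean was 170.1 ± 14.7 CPM for Dab2 (SD, n = 8), 73.9 ± 11.8 for Amn, 65.1 ± 14.1 for Lrp2 and 29.4 ± 5.77 for Cubn. Dab2 stood above and Cubn below the rest, whereas Amn and Lrp2 differed by less than their spread. Over all 8 controls the coefficient of variation was 21.7% for Lrp2, 19.6% for Cubn, 15.9% for Amn and 8.64% for Dab2. Within controls 5 to 8 it was nearly level for the first 3, at 13.2%, 13.6% and 12.4%, and 9.44% for Dab2.

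All 4 members fell in all 3 injuries in the main test and were lowest after rhabdomyolysis, although Lrp2 in IRI and Dab2 in cisplatin did not fall under quantile normalization. After rhabdomyolysis Cubn kept 13.3%, Lrp2 18.4%, Amn 25.7% and Dab2 49.9% of the mean CPM in the matched controls. After cisplatin Lrp2 kept 32.01%, Amn 37.7%, Cubn 48.2% and Dab2 70.4%. After IRI the 4 were closer together, at 52.9% for Amn, 62.0% for Dab2, 64.7% for Cubn and 65.4% for Lrp2. The background was high in this selected table: of 5672 genes tested with limma, 80.7% were called in IRI, 95.3% in rhabdomyolysis and 91.8% in cisplatin at an adjusted p under 0.05, and 40.1%, 46.5% and 44.0% were called lower. A gene called lower in all 3 injuries was no rarity either, at 36.9% of those tested. In bulk cortex, fewer proximal tubule cells and less RNA per cell cannot be told apart.

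**Figure D1:**
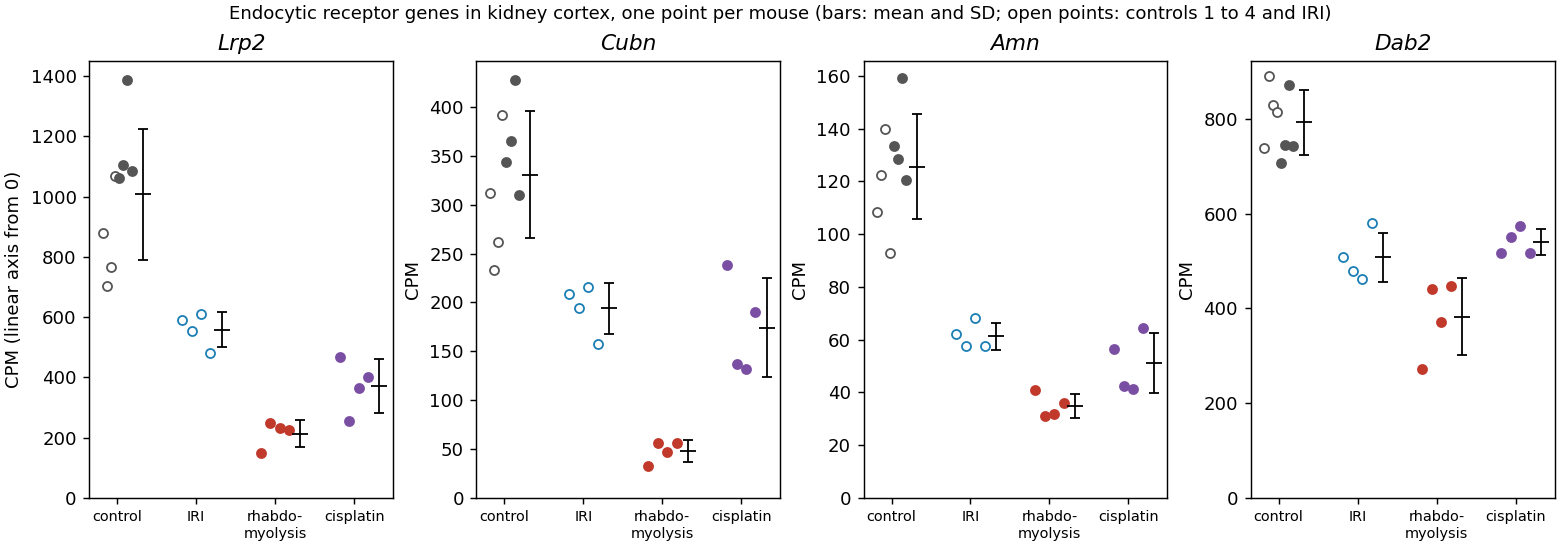
CPM of each member in each of the 20 mice on linear axes from 0, with 1 point per library and bars for the group mean and SD; open points mark controls 1 to 4 and the IRI mice. Every injured library lies below every control, with the exception of Cubn in cisplatin mouse 1, and the rhabdomyolysis libraries are lowest for each gene.

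Lrp2 encodes megalin, the main apical receptor of the pathway. Its CPM in the 8 controls was 702 at the lowest, 1064 at the median and 1388 at the highest. The IRI mice had 589, 555, 609.9 and 479 CPM, the rhabdomyolysis mice 147, 249.5, 231 and 225, and the cisplatin mice 467, 254, 364.5 and 399.8. The groups did not overlap in CPM: each cisplatin mouse lay between the highest rhabdomyolysis and the lowest IRI mouse. The IRI mice are in another identifier range than the other injured mice, and Lrp2 differed by -0.45 between the controls of those ranges. How many genes set the IRI mice apart from the other injured mice was not counted. All libraries of a group lay below all 8 controls for 33.8% of genes tested in IRI, 42.7% in rhabdomyolysis and 38.0% in cisplatin. The log2 fold change on the log2(CPM + 1) scale was -0.60 in IRI (SE 0.18, limma adjusted p = 0.00429), -2.46 in rhabdomyolysis (SE 0.18, adjusted p = 2.13e-11) and -1.67 in cisplatin (SE 0.18, adjusted p = 2.00e-08). In rhabdomyolysis, 6.29% of the genes tested had a more negative fold change than Lrp2.

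Cubn encodes cubilin, the receptor for intrinsic factor with vitamin B12 and for albumin and other filtered proteins. Controls had 233 CPM at the lowest, 328 at the median and 427.5 at the highest. After IRI the values were 209, 194, 216 and 157 CPM, after rhabdomyolysis 32.9, 56.1, 47.0 and 56.1, and after cisplatin 239, 137, 132 and 190.4. Cisplatin mouse 1 reached into the control range, while the other 3 lay below it, and the cisplatin and IRI mice overlapped. The log2 fold change was -0.61 in IRI (SE 0.19, limma adjusted p = 0.00706), -2.91 in rhabdomyolysis (SE 0.19, adjusted p = 5.64e-12) and -1.08 in cisplatin (SE 0.19, adjusted p = 2.43e-05). Among the genes tested, 3.35% fell further than Cubn in rhabdomyolysis but 18.9% did in cisplatin.

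Amn encodes amnionless, the membrane anchor without which cubilin does not reach the surface. Controls ranged from 92.9 CPM through a median of 125.5 to 159 CPM. The IRI mice had 62.0, 57.4, 68.3 and 57.4 CPM, the rhabdomyolysis mice 40.8, 30.9, 31.7 and 35.9, and the cisplatin mice 56.4, 42.4, 41.1 and 64.4. No injured mouse reached the controls, and the cisplatin mice overlapped the IRI mice but not the rhabdomyolysis mice. Amn was the member that fell furthest in IRI by point estimate, with a log2 fold change of -0.90 (SE 0.15, limma adjusted p = 1.21e-05). It was -1.93 in rhabdomyolysis (SE 0.15, adjusted p = 4.26e-11) and -1.41 in cisplatin (SE 0.15, adjusted p = 1.27e-08).

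Dab2 encodes the clathrin adaptor that carries the receptors into coated pits. It was the steadiest member in the controls, with 708 CPM at the lowest, 780.5 at the median and 892 at the highest. After IRI it had 509, 479, 462 and 581 CPM, after rhabdomyolysis 271, 442, 371 and 447, and after cisplatin 518, 551, 573 and 518. Every injured mouse lay below every control, yet the distance was modest: the highest injured mouse, in IRI, had 581 CPM against 708 in the lowest control. The log2 fold change was -0.69 in IRI (SE 0.13, limma adjusted p = 7.68e-05), -1.02 in rhabdomyolysis (SE 0.13, adjusted p = 1.96e-07) and -0.50 in cisplatin (SE 0.13, adjusted p = 0.00127). In cisplatin 41.0% of genes tested had a more negative change, so the fall of Dab2 there lay near the middle of the table.

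How the falls in IRI and in Dab2 read depends on the scaling. Under quantile normalization, which forces the same distribution of values on every library, Lrp2 in IRI was 0.04 (adjusted p = 0.835), Cubn in IRI -0.21 (adjusted p = 0.378), Dab2 in IRI -0.09 (adjusted p = 0.558) and Dab2 in cisplatin 0.04 (adjusted p = 0.806), all by limma. Dab2 in rhabdomyolysis shrank to -0.35 (limma adjusted p = 0.0153) and Lrp2 in cisplatin to -1.08. The falls of Amn in the 3 injuries, of Lrp2 and Cubn in rhabdomyolysis and cisplatin, and of Dab2 in rhabdomyolysis kept their calls under every scaling tried. Relative to the median gene tested, whose log2 fold change was 0.08 in IRI, 0.31 in rhabdomyolysis and 0.30 in cisplatin, the members lay further down than the bare values show. That median depends on the genes kept and on the scaling: it was -0.06, -0.38 and -0.03 over genes averaging 5 CPM or more, which includes the members, and 0.20, 0.45 and 0.39 under 75th percentile scaling.

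**Figure D2:**
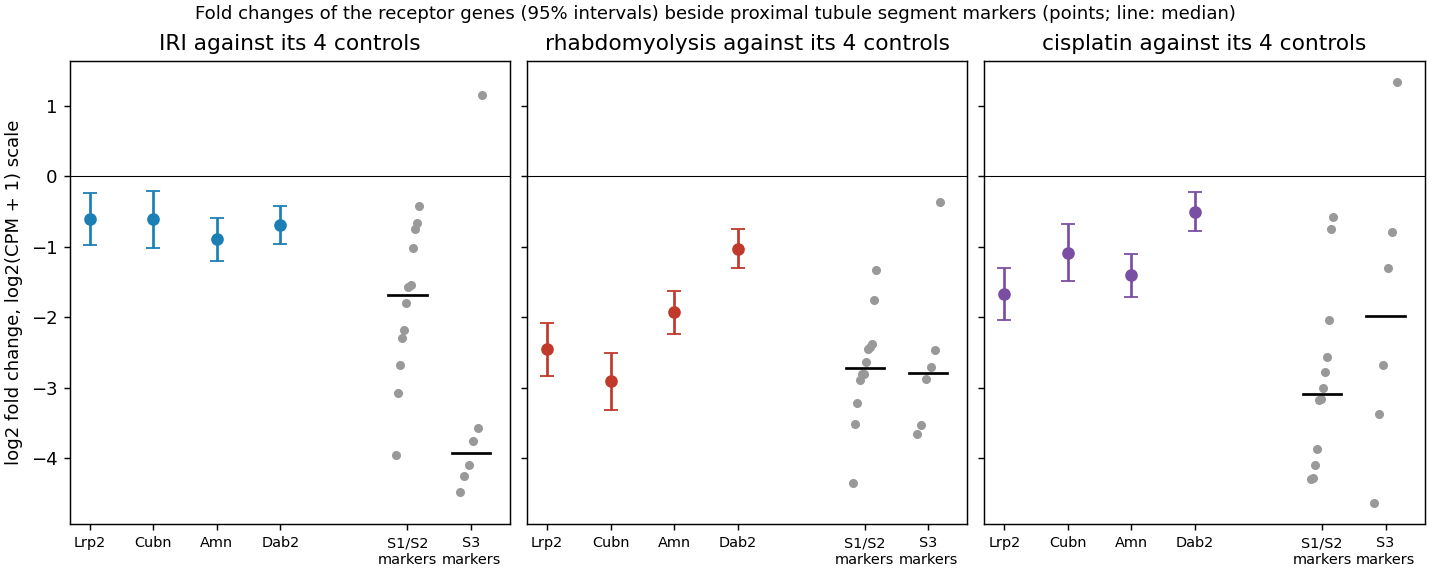
Log2 fold change of each member against the 4 controls of its own identifier range, with bars for the 95% interval from limma, beside the single markers of the proximal tubule segments (grey points, with a line at their median). Rhabdomyolysis lies lowest for all 4 genes, Lrp2 in IRI and Dab2 in cisplatin were 0.04 each under quantile normalization, and the 3 injuries are closest together for Dab2, from -1.02 to -0.50.

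Rhabdomyolysis and cisplatin could be compared directly, since their libraries share an identifier range. All 4 members were lower after rhabdomyolysis, and no rhabdomyolysis mouse overlapped a cisplatin mouse for any of them. The difference was largest for Cubn, at -1.83 (SE 0.19, limma adjusted p = 6.96e-08), and 2.75% of genes tested had a more negative value. It was -0.79 for Lrp2 (SE 0.18, limma adjusted p = 7.72e-04), -0.52 for Amn (SE 0.15, adjusted p = 0.00461) and -0.52 for Dab2 (SE 0.13, adjusted p = 0.00209). Of all genes tested, 54.1% were called in this contrast, 32.7% lower and 21.4% higher. That split depends on the scaling: 39.6% of the calls were higher here, against 51.7% under quantile normalization and 50.1% with DESeq2. The 2 groups did not overlap for 47.8% of genes, and for 1644 genes all rhabdomyolysis mice lay below all cisplatin mice.

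IRI was set against the other injuries through the difference of the fold changes, each against its own controls. The fall was smaller in IRI than in rhabdomyolysis by 1.86 for Lrp2 (SE 0.25, limma adjusted p = 4.44e-06), 2.30 for Cubn (SE 0.27, adjusted p = 9.19e-07) and 1.03 for Amn (SE 0.21, adjusted p = 3.20e-04), on the log2 scale. For Dab2 the difference was 0.33 (95% interval -0.05 to 0.72, limma adjusted p = 0.137), and without rhabdomyolysis mouse 1 it was 0.18. With all 8 controls as a shared reference the controls cancel, which leaves IRI minus rhabdomyolysis across the identifier ranges. For Dab2 that direct difference was 0.43 (limma adjusted p = 0.00629). Between the fold changes against own controls, 52.0% of genes tested were called, 28.6% with the higher value in IRI.

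Against cisplatin, the smaller fall in IRI was called for Lrp2 alone, at 1.07 (95% interval 0.54 to 1.59, limma adjusted p = 0.00274), where 30.3% of genes tested were called and 13.5% with the higher value in IRI. With all 8 controls in both fold changes the controls cancel, which leaves IRI minus cisplatin across the identifier ranges. That direct difference was 0.62 for Lrp2 (limma adjusted p = 0.0138), 0.19 for Cubn (adjusted p = 0.465), 0.28 for Amn (adjusted p = 0.133) and -0.09 for Dab2 (adjusted p = 0.5955). Each against its own controls, the other members gave 0.47 for Cubn (95% interval -0.09 to 1.04, limma adjusted p = 0.197), 0.51 for Amn (0.08 to 0.94, adjusted p = 0.0646) and -0.19 for Dab2 (-0.57 to 0.20, adjusted p = 0.473). Dab2 gave -0.12 under quantile normalization (limma adjusted p = 0.646). The Amn difference passed the threshold under 75th percentile scaling, at 0.55 (limma adjusted p = 0.0282), under quantile normalization, at 0.57 (adjusted p = 0.02199), without control 3, at 0.61 (adjusted p = 0.0318), and without cisplatin mouse 4, at 0.63 (adjusted p = 0.02003). These intervals leave room for a difference in either direction for Cubn and Dab2, and do not show that the injuries act alike.

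Whether the members fell in fixed proportion was asked through their ratios. Ratios of 2 members within a library do not depend on a scaling factor of that library, and 24 such comparisons were made with two-sided exact permutation tests of 4 against 4 mice, for which the smallest possible p is 0.0286. None of the 24 had a Benjamini-Hochberg adjusted p under 0.05, while 12 reached the smallest possible p (adjusted p = 0.0571).

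In IRI no ratio within the complex differed from the controls by the test. The Lrp2 to Cubn ratio was 2.82, 2.86, 2.82 and 3.05 in the IRI mice and 2.72 to 3.01 in controls 1 to 4 (exact permutation p = 0.800). For the other 5 pairs the exact permutation p ran from 0.286 to 0.857. Amn fell furthest by point estimate, but its ratio to Cubn in IRI, 0.296 to 0.365, lay inside the control range of 0.237 to 0.533.

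The ratio of the 2 receptors lay on opposite sides of controls 5 to 8 after rhabdomyolysis and cisplatin, with adjusted p above the threshold. Lrp2 to Cubn was 4.48, 4.45, 4.91 and 4.01 in the rhabdomyolysis mice, above the 3.03 to 3.50 of controls 5 to 8, a log2 difference of 0.47 (exact permutation p = 0.0286, adjusted p = 0.0571). In the cisplatin mice it was 1.96, 1.86, 2.77 and 2.1, below those controls (log2 difference -0.58, exact permutation p = 0.0286, adjusted p = 0.0571). Neither group overlapped controls 5 to 8 or the other injury, and the 2 injuries differed by 1.05 (exact permutation p = 0.0286, adjusted p = 0.0571). Cisplatin mouse 3 lay above the lowest of controls 1 to 4, at 2.72.

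The ratio of amnionless to its partner cubilin gave adjusted p above the threshold too. Amn to Cubn was 1.24, 0.552, 0.675 and 0.640 in the rhabdomyolysis mice and 0.236, 0.310, 0.312 and 0.338 in the cisplatin mice, against 0.353 to 0.388 in controls 5 to 8. The log2 differences from controls were 0.98 and -0.34, each with an exact permutation p of 0.0286 (adjusted p = 0.0571). Controls 1 to 4 were more spread, at 0.237 to 0.533, so the cisplatin ratios lay inside the range of all 8 controls except in mouse 1, at 0.2363 against a lowest control of 0.2367. Rhabdomyolysis mouse 1 set the upper end: without it the difference in that group was 0.73. The same mouse was the lowest of its group for Lrp2, Cubn and Dab2 and the highest for Amn.

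Dab2 kept the largest share of its control level after rhabdomyolysis and cisplatin. After IRI its share was 62.0% of controls 1 to 4, below those of Lrp2 and Cubn, but 64.0% of the mean of all 8 controls, above their 55.4% and 58.7%. Dab2 to Lrp2 was 0.629 to 0.685 in controls 5 to 8, 1.60 to 1.99 after rhabdomyolysis and 1.11 to 2.17 after cisplatin, with log2 differences of 1.44 and 1.17 (exact permutation p = 0.0286 for each, adjusted p = 0.0571). Dab2 to Cubn was 7.88 to 8.25 after rhabdomyolysis, a narrow band far above the 2.04 to 2.39 of the controls (log2 difference 1.91, exact permutation p = 0.0286, adjusted p = 0.0571). After cisplatin it was 2.17 to 4.36 and overlapped them (exact permutation p = 0.0571). Dab2 to Amn was higher by 0.93 after rhabdomyolysis and 0.92 after cisplatin (exact permutation p = 0.0286 for each, adjusted p = 0.0571). Controls 1 to 4 reached 1.27 for Dab2 to Lrp2, above the lowest cisplatin mouse. They reached 8.78 for Dab2 to Amn, above rhabdomyolysis mouse 1 at 6.64 and cisplatin mouse 4 at 8.04. With all 8 controls the Dab2 to Lrp2 difference in rhabdomyolysis was 1.16 and the Dab2 to Cubn difference 1.72.

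**Figure D3:**
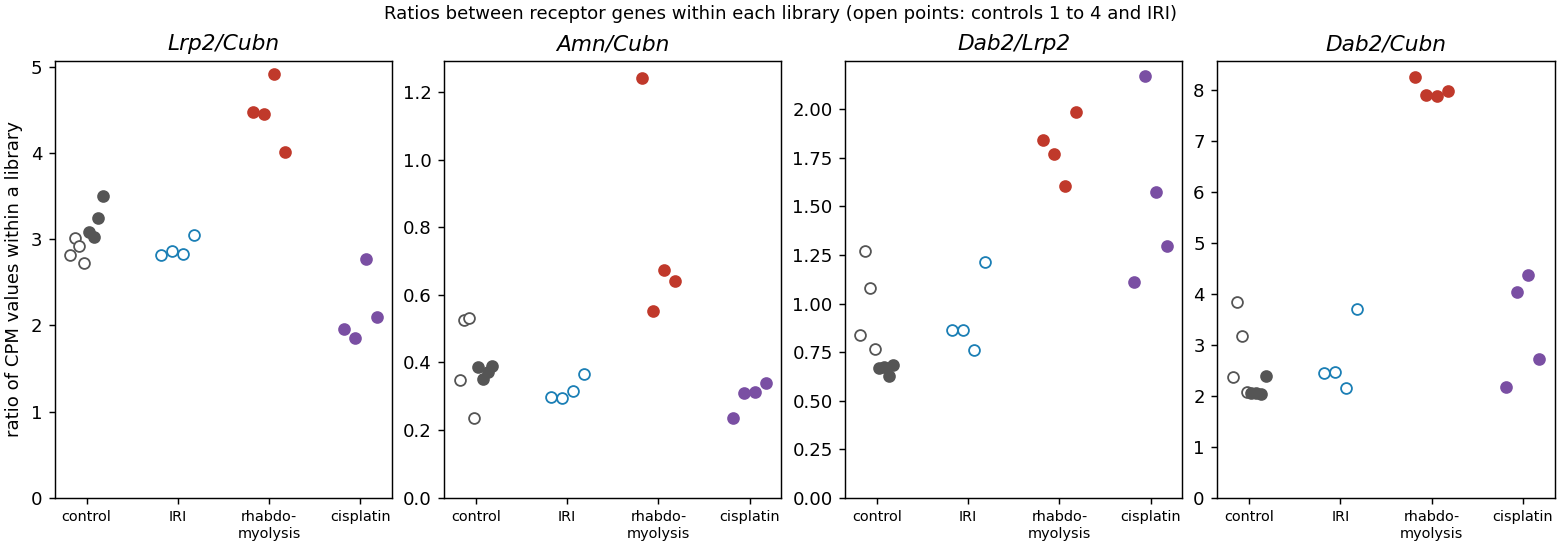
Ratios of member CPM within each library on linear axes from 0, with 1 point per mouse by group; open points mark controls 1 to 4 and the IRI mice. Lrp2 to Cubn lies above the controls in all 4 rhabdomyolysis mice and below them in 3 of 4 cisplatin mice when all 8 controls are shown, and Dab2 to Cubn is tightly grouped after rhabdomyolysis.

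Variation among controls 1 to 4 was shared by Lrp2 and Cubn. In controls 1 to 4, the log2 deviation from the mean of those 4 was 0.06, -0.26, -0.14 and 0.34 for Lrp2 and 0.08, -0.34, -0.16 and 0.41 for Cubn, whereas Amn had -0.08, 0.09, 0.28 and -0.30. Lrp2 and Cubn, with the longest transcripts, stood high in controls 1 and 4 and low in controls 2 and 3, and Amn, with the shortest, did the reverse in all 4. Over the 5255 tested genes with a known length, those 4 libraries differed in the same way: the log2 deviation changed per doubling of transcript length by 0.11, -0.15, -0.11 and 0.15 in controls 1 to 4. In controls 5 to 8 it was -0.02, 0.08, -0.07 and 0.01, and in the injured mice it lay between -0.08 and 0.04. Controls 5 to 8 did not show the pattern: control 7, with a negative slope, was the highest of them for Lrp2 (0.27), Cubn (0.25) and Amn (0.24), and control 6, with a positive slope, had -0.06 for Lrp2. The part of this length trend in the control spread of the members was not tested. The Lrp2 level in controls 1 to 4 minus that in controls 5 to 8 was -0.45 on the log2 scale (limma unadjusted p = 0.0192, adjusted p = 0.535). For no gene did limma call a difference between those 2 sets of controls. Of the 5672 genes tested, 454 had an unadjusted p under 0.05, with Lrp2 among them.

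**Figure D4:**
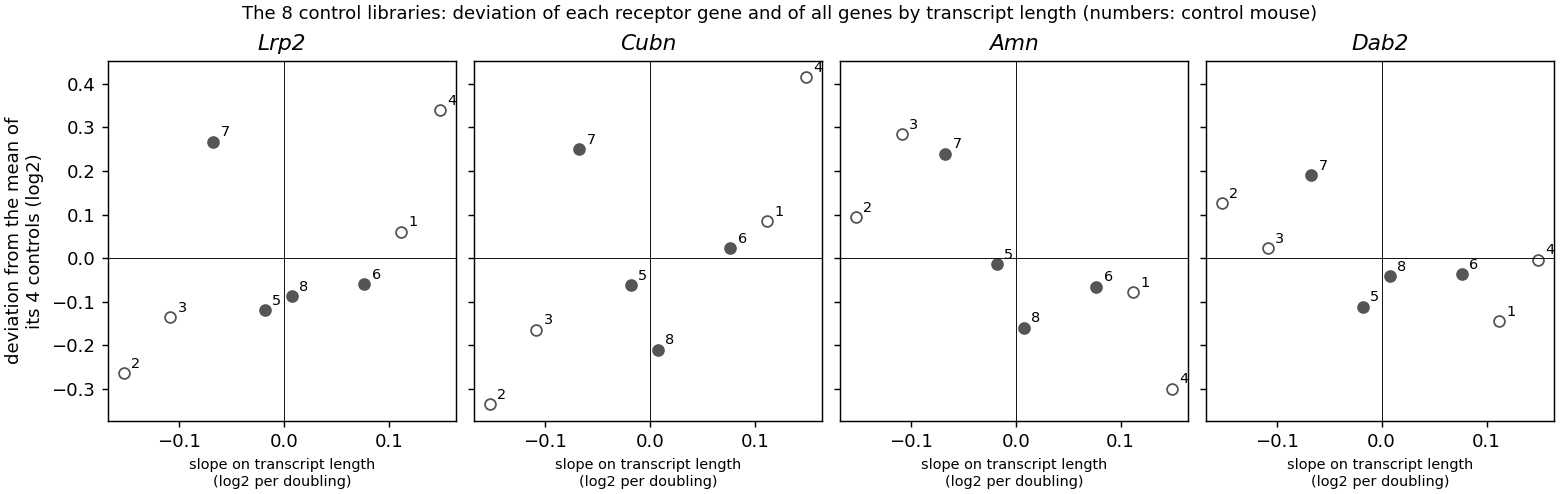
Log2 deviation of the members in each control library from the mean of its identifier range, plotted against the slope of all genes on transcript length in that library (log2 per doubling); open points mark controls 1 to 4. In controls 1 to 4, Lrp2 and Cubn lie high where the slope is positive and Amn lies low, whereas control 7 lies high for all 4 genes at a negative slope.

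Across all 20 libraries, likeness of pattern was measured as the root mean square difference of log2 values after each gene was set relative to its mean in the 8 controls. The genes most like Lrp2 were Pdzd2 (0.23), Veph1 (0.24) and Habp2 (0.27), while Cubn stood 57th at 0.35, Amn 94th and Dab2 1517th. Those most like Cubn were Enpp3 (0.28), C1rl (0.29) and the basolateral bicarbonate cotransporter Slc4a4 (0.29), and Lrp2 stood 12th, Amn 312th and Dab2 1394th. For Amn they were Tm2d2 (0.14), Ppa2 (0.15) and Nfs1 (0.17), and for Dab2 they were Skiv2l (0.15), Isca1 (0.16) and Crbn (0.16). Lrp2 stood 490th from Amn, Cubn 1395th and Dab2 1467th, and the other members stood 1768th to 2170th from Dab2. Within the complex the difference was 0.35 for Lrp2 and Cubn, 0.38 for Lrp2 and Amn and 0.56 for Cubn and Amn, while Dab2 differed from the others by 0.58 to 0.83. These ranks are a description over libraries that share the same groups.

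The other genes of the pathway were read from fixed lists, given here by role, by the number called higher and lower. They were read against all genes tested, of which 40.6% were called higher and 40.1% lower in IRI, 48.8% and 46.5% in rhabdomyolysis, and 47.8% and 44.0% in cisplatin. Lrpap1, the chaperone that keeps megalin from binding ligand too early in the endoplasmic reticulum, fell with its client, from 552 ± 71.7 CPM in controls (SD, n = 8) to 228 ± 28.5 after IRI, 139 ± 5.50 after rhabdomyolysis and 236 ± 46.2 after cisplatin (n = 4 each). Its log2 fold changes were -1.25, -1.99 and -1.25, with limma adjusted p of 8.95e-08, 1.60e-11 and 4.89e-08. The list of LDL receptor relatives and chaperones, which includes Lrpap1, was mixed. Of 7 of the 17 listed genes in the table, 3 rose and 2 fell in IRI, 4 rose and 3 fell in rhabdomyolysis, and 2 rose and 3 fell in cisplatin, with median log2 values of 0.03, 1.27 and 0.33. Under quantile normalization the medians in IRI and cisplatin turned negative, at -0.07 and -0.16. Lrp8, a reelin receptor, rose from 1.23 ± 0.736 CPM to 22.7 ± 5.57, 28.95 ± 3.97 and 11.4 ± 3.30. Lrp1, which macrophages and fibroblasts also express, rose from 19.0 ± 5.03 to 31.4 ± 1.99, 66.2 ± 15.4 and 47.4 ± 16.6. The fall of Lrp3 in IRI lost its call under 75th percentile scaling and with edgeR.

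Among adaptors and coat proteins, 7 of 34 listed genes were in the table, with 4 higher and 2 lower in IRI, 5 and 2 in rhabdomyolysis, and 4 and 2 in cisplatin. Their median log2 was 0.38, 0.84 and 0.48, above the median of all genes, unlike Dab2. Myo6, the motor that moves coated vesicles inward from the brush border, fell from 376 ± 45.9 to 238 ± 6.32, 166.5 ± 24.4 and 261 ± 23.8. Epn1, a clathrin accessory protein, fell from 375 ± 43.0 to 259.6 ± 21.7, 141 ± 7.59 and 202 ± 20.3, and Bin1 rose. The IRI calls of Myo6 and Epn1, and the cisplatin call of Myo6, were lost under quantile normalization. Gipc1 was not analysed here.

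The endosomal lists had negative medians in each injury. Of 12 endosome and recycling genes in the table, 7 were lower in IRI, 9 in rhabdomyolysis and 9 in cisplatin, with 2, 3 and 3 higher, and the median log2 was -0.36, -1.25 and -0.84. In IRI 5 of 12 were lower under both 75th percentile and quantile scaling. Rab11fip3, an effector of recycling endosomes, fell from 590.5 ± 45.3 CPM to 237 ± 29.4 after IRI, 77.0 ± 10.4 after rhabdomyolysis and 125 ± 31.3 after cisplatin. Appl2, a protein of early endosomes, fell from 34.0 ± 2.61 to 13.8 ± 0.725, 11.1 ± 1.49 and 12.9 ± 2.103. The EH-domain genes Ehd2 and Ehd4 rose, from 18.4 ± 2.13 to 42.3 ± 3.13 and from 47.6 ± 5.76 to 75.3 ± 2.16 CPM in IRI.

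Of 8 genes for endosome acidification, 7 were lower and 1 higher in each injury, with a median log2 of -0.68, -1.17 and -0.64 in IRI, rhabdomyolysis and cisplatin. In bulk cortex the cell type behind these reads cannot be told, and all 7 distal nephron markers fell too in the main test. Under quantile normalization 5 were lower in IRI, and 5 were lower and 2 higher in cisplatin, where edgeR also called 5 lower. Slc9a3, the apical sodium-proton exchanger, fell from 60.7 ± 7.49 CPM to 37.3 ± 4.98, 20.0 ± 7.82 and 23.4 ± 3.13. The proton pump subunit Atp6v0a1 rose, from 69.7 ± 7.11 to 83.9 ± 12.1, 129 ± 6.85 and 129.5 ± 21.3. Some smaller falls did not hold with another scaling: Atp6v0a4 turned positive under quantile normalization in IRI (0.17) and cisplatin (0.03), and Atp6v1a in cisplatin was then called higher (0.25, limma adjusted p = 0.0423). Clcn5 was not analysed here.

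Other uptake receptors did not change in 1 direction. Of 10 in the table, 6 rose and 3 fell in IRI, and 7 rose and 3 fell in both other injuries. Havcr1 (kidney injury molecule 1, a receptor for dying cells on injured tubules) rose from 3.08 ± 1.30 CPM to 3467 ± 586 after IRI, 1835 ± 554 after rhabdomyolysis and 1610.0 ± 98.6 after cisplatin. Folr1, the apical folate receptor, fell from 508 ± 92.6 to 170.1 ± 22.9, 86.8 ± 13.9 and 144.5 ± 34.7. Fcgrt, the neonatal Fc receptor that spares albumin and IgG from degradation, fell from 258 ± 35.6 to 199 ± 12.9, 79.6 ± 10.0 and 136 ± 6.46, and its call in IRI was lost under 75th percentile and quantile scaling and with edgeR.

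Genes that handle the cargo of the receptors were mixed. Of 13 in the table, 7 fell and 4 rose in IRI, 8 fell and 2 rose in rhabdomyolysis, and 7 fell and 5 rose in cisplatin. Under 75th percentile scaling 5 fell and 5 rose in IRI. Tcn2, which encodes transcobalamin, the plasma carrier of vitamin B12 that megalin binds, fell from 2024 ± 280 CPM to 863 ± 96.5, 598 ± 50.4 and 583 ± 101. The lysosomal protease gene Ctsd rose from 770.3 ± 55.1 to 2054 ± 74.99, 3574 ± 466 and 2526 ± 307. Cd320 was not analysed here. Among 3 genes for shedding and cleavage of receptor tails in the table, Adam10 and Mmp14 rose and the gamma-secretase subunit gene Aph1c fell in each injury.

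Among transcription factors of proximal tubule identity, Hnf4a was lowest after rhabdomyolysis, where the receptors were lowest too. Hnf4a went from 1212 ± 136 CPM in controls to 850.0 ± 45.8 after IRI, 123 ± 30.9 after rhabdomyolysis and 359 ± 107 after cisplatin, with log2 fold changes of -0.48 (limma adjusted p = 0.0192), -3.34 (adjusted p = 2.08e-13) and -1.82 (adjusted p = 6.27e-09). In IRI it was -0.34 under 75th percentile scaling (limma adjusted p = 0.0651) and 0.33 under quantile normalization (adjusted p = 0.0718). Of the 7 regulators in the table, 2 fell in IRI (1 under 75th percentile or quantile scaling) and 5 in each other injury, while Tfe3 and Ybx3 rose in all 3. No test of regulators on the members was made.

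**Figure D5:**
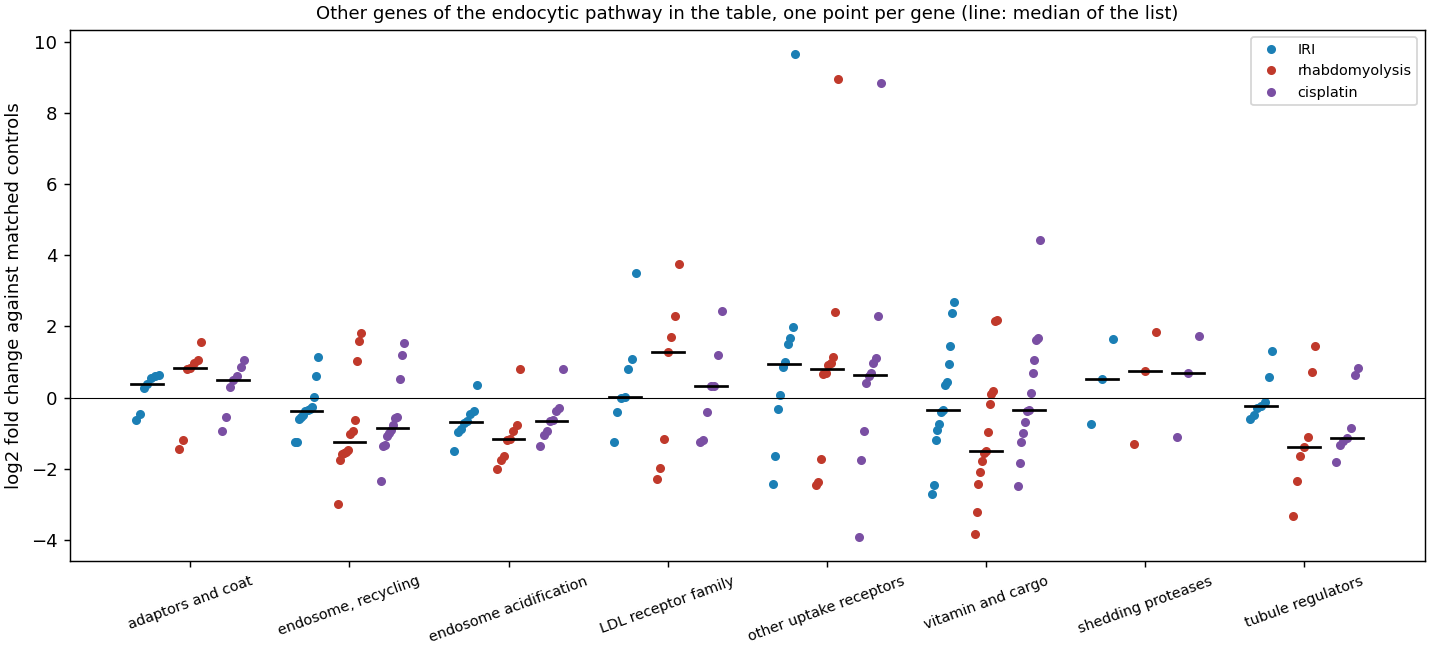
Log2 fold change of each pathway gene by list in the 3 injuries, with 1 point per gene and the list median marked. Endosome and acidification genes lie mostly below 0, while adaptor and coat genes lie mostly above it.

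Markers of the cells that carry the complex fell alongside it, in a table where 40.1%, 46.5% and 44.0% of genes were called lower in IRI, rhabdomyolysis and cisplatin. Of 12 markers of the first and second proximal tubule segments, 11 fell in IRI, 12 in rhabdomyolysis and 12 in cisplatin, with median log2 values of -1.68, -2.72 and -3.08, and their summed CPM was 3938 to 5145, 2203 to 2855 and 1514 to 3046. Under quantile normalization 8 were lower in IRI and 10 in cisplatin, with Slc4a4 at 0.015 in IRI. No difference between this list and the members was tested. Within the list, Slc34a3, a phosphate transporter, fell from 85.4 ± 9.31 CPM to 4.84 ± 0.491, 15.3 ± 7.03 and 3.53 ± 1.91, and Gatm, the first enzyme of creatine synthesis, from 1199 ± 200 to 161 ± 33.4, 51.2 ± 7.65 and 54.7 ± 17.5. Of 6 markers of the third segment, 5 fell and 1 rose in IRI and in cisplatin, and 6 fell in rhabdomyolysis. The sixth of these, Slc6a18 (-0.36), lost its call under 75th percentile scaling, DESeq2 size factors and edgeR and was 0.20 under quantile normalization. All 7 distal nephron markers fell in each injury in the main test, but under quantile normalization Slc12a3 was -0.22 in IRI (limma adjusted p = 0.336) and 0.04 in rhabdomyolysis, which left 6 of 7 in both.

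Markers of several cell types outside the tubule had higher sums in injured mice, with overlap in places. The 11 macrophage markers summed to 91.0 to 134 CPM in controls, 143 to 183 after IRI, 150 to 329 after rhabdomyolysis and 236 to 354 after cisplatin, with 5, 10 and 9 called higher and 1 lower in each, Csf1r. The 5 of 11 in IRI is a share near the 40.6% of all genes called higher there. The 7 fibroblast markers summed to 99.0 to 223, 440 to 542, 446 to 1289 and 246 to 700 CPM, with 7, 7 and 6 higher. The 4 endothelial markers summed to 174 to 360.2, 341 to 381, 601 to 857 and 381 to 537 CPM, so IRI overlapped the controls, and the 3 podocyte markers to 177 to 484, 488 to 619.7, 661 to 952 and 523 to 645.5 CPM. Macrophages are known to express Dab2. The part of these cells in the smaller fall of Dab2 was not tested.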

How the data were processed

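The authors deposited CPM (read counts scaled to a common library size) for selected genes in 20 renal cortex libraries. Per the labels' protocols these came from poly-A bead capture and the KAPA stranded kit, sequenced with 150-bp paired reads. Per the submitters' processing notes the tools include FastQC, Bowtie2 2.1.0, RSEM 1.2.15 and edgeR, and the builds GRCm38 and mm10, with no role or order given. Deposited CPM values were whole multiples of each library's step (100% of 120500 values, within 0.001 of a read), so effective sizes of 6.07 M to 10.6 M reads and read counts were recovered. For cisplatin mouse 2 the step was taken from that library's own values.

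The main test was limma 3.58.1 (R 4.3.3) on log2(CPM + 1) with a mean-variance trend and 5 cells of libraries (controls of each identifier range separately), on 5672 genes averaging 1 CPM or more over all libraries, which left out 353. p-values were adjusted by Benjamini-Hochberg over all genes tested, with a threshold of 0.05. Counts recovered from the deposited CPM were also tested with edgeR 4.0.16 and DESeq2 1.42.0. Ratios used exact permutation tests (scipy 1.17.1). The fit was also run on simulated data, and the outcome is not reported here. The design text calls the samples biological replicates.

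Named genes were the 4 members, up to 2 with the largest and 2 with the smallest mean log2 fold change per list among genes called the same way in all 3 injuries, 10 preset partners where present, and the 3 most like genes per member. The transcript length trend is a description added after the values were seen. The members and lists were chosen with earlier results of these data known. Replicate numbers are shared by IRI and controls 1 to 4 and by rhabdomyolysis and cisplatin, and were used as a block only as an alternative. Other alternatives changed the pseudocount (0.1 or 5), the minimum mean (none or 5), the scaling (75th percentile, quantile, DESeq2 size factors), the trend, the controls, the libraries in the fit, a 2-fold minimum and each library left out in turn. Results for some named genes are not reported here.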

Additional observations from a re-analysis of the deposited data

Results flagged for a closer look

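The log2 ratio of Lrp2 to Cubn in IRI mouse 4 was 1.61, the highest of its group, and its gap to the nearest mouse took 0.839 of the group's range. On the linear scale the ratio was 3.05 in that mouse against 2.82 to 2.86 in the other 3, and the controls of the same range reached 3.01. Of 40 groups examined 1 was flagged, where chance alone flags about 1 in 20.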

How the results depend on the processing

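Of 400 alternative values for the members against control, 391 kept direction and call, and of 400 between injuries 3 lost and 5 gained a call. Leaving out a mouse outside the comparison, or the mean-variance trend, cannot change the fold change. Many of these values could therefore differ in their p-value only, so the counts overstate what was varied. Under quantile normalization, Lrp2 in IRI was 0.043, Cubn in IRI -0.21, Dab2 in IRI -0.087, Dab2 in cisplatin 0.035, and the Amn difference between IRI and cisplatin 0.57 (called, adjusted p = 0.02199), by limma. The cause was not tested. The same Amn difference was 0.55 under 75th percentile scaling (called, limma adjusted p = 0.0282) and 0.41 to 0.63 when single mice were left out. With all 8 controls as a shared reference the controls cancel, which leaves a direct difference across identifier ranges, 0.28 for Amn (limma adjusted p = 0.133). With a 2-fold minimum, the calls of Lrp2 (-0.60), Cubn (-0.61), Amn (-0.90) and Dab2 (-0.69) in IRI, Dab2 in cisplatin (-0.50), and Lrp2 (-0.79), Amn (-0.52) and Dab2 (-0.52) between rhabdomyolysis and cisplatin ended by construction. The genes called were then 1717 in IRI (4578 in the main test), 2595 in cisplatin (5208), 913 between rhabdomyolysis and cisplatin (3068), 1283 between IRI and rhabdomyolysis effects (2949) and 805 between IRI and cisplatin effects (1716). For the direct difference across identifier ranges that all 8 controls leave, the last count was 2636, and the Dab2 value between IRI and rhabdomyolysis 0.43. The share of calls that were higher between rhabdomyolysis and cisplatin was 39.6%, against 51.7% under quantile normalization, 49.7% with DESeq2 size factors and 50.1% with DESeq2, and for IRI and cisplatin effects 44.5% against 55.7% under quantile normalization.

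The replicate block changed no call of a member: in IRI it gave limma adjusted p = 0.0114 for Lrp2, 0.0141 for Cubn, 2.29e-04 for Amn and 0.00218 for Dab2, with 4411 genes called, and between rhabdomyolysis and cisplatin 0.0189, 4.08e-04, 0.00908 and 0.0147, with 2834 genes called. Same-numbered libraries correlated between -0.11 and 0.18 in the first pair of groups and between -0.21 and 0.32 in the second, so the numbers were not taken as pairs. No paired analysis was possible for rhabdomyolysis or cisplatin against controls 5 to 8 because they share no replicate number.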
